A study of Mus musculus with 32 samples.

Results

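The genes described here are 10 genes known as transcriptional targets or feedback regulators of canonical Wnt signalling: *Nkx1-2*, *Sp5*, *Axin2*, *Lef1*, *Tcf7*, *Cdx1*, *Notum*, *Nkd1*, *Lgr5* and *Znrf3*. They were taken by symbol, as 10 of 54233 rows of the gene table, and 9 of the 15227 genes that passed a filter on low values are among them. *Lgr5* did not pass. The list was chosen by the levels of these genes over the 8 time points, which were already known, so the values of its members are a description. No p-value is given for a single member. Where a single member is said to be called or past a threshold, this describes its values only. Counts of members past a threshold stand beside those of all genes, except where settings were varied, and support nothing.

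RNA-seq was measured in mouse embryonic stem (mES) cells of the KH2 line, labelled as C57BL/6, that carry the transgene TRE:GATA6-DSREd2. According to the study's methods this is a single copy in which a tetracycline-responsive element drives tagged GATA6 and the red fluorescent protein DsRed2 in opposite directions. At 0 h, cells were in 2i medium, a serum-free medium with the MEK inhibitor PD0325901, the GSK3 inhibitor CHIR9902 and LIF, without doxycycline (Dox). For 2, 4 and 8 h they were in serum medium with LIF and 1 µg/ml Dox, and for 16, 24, 48 and 96 h they had 12 h of Dox followed by the same serum medium without Dox. The transgene and LIF were thus shared by all 8 groups. Removal of both inhibitors, the change to serum and the start of GATA6 expression coincided between 0 h and every later time point, and their effects cannot be told apart in these samples.

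Each time point had 4 replicates. The study's methods call them biological replicates, while the labels do not say what separated them. The libraries held between 3190108 and 12301732 reads on genes (median 8870662.5). Transgene reads were 0 in the 4 samples at 0 h, and the normalized count was 618 ± 110.4 (SD, n = 4) at 2 h. The 10 embryonic stem cell markers summed to between 46175 and 52365 normalized counts at 0 h and between 7048 and 8526 at 96 h, whereas the 13 primitive endoderm (PrE) markers went from 646 to 933 at 0 h up to 254342 to 357266 at 96 h. At 0 h, all 10 stem cell markers and 5 of the 13 PrE markers had a mean of at least 10. At 96 h all 10 and all 13 did, so this criterion does not set the 0 h cells apart by their stem cell markers. Of the PrE markers, 3 were at no more than 3 reads in every 0 h sample. Trophoblast markers summed to between 688 and 771 at 0 h and between 269 and 765 at 96 h, and fibroblast markers to between 3.26 and 34.0 over all samples. Scaling by total reads in place of the authors' size factors gave the median of all genes a shift against 0 h of -0.26 on the log2 scale after 96 h, -0.13 after 48 h and -0.10 after 2 h. An upper-quartile scaling shifted it by -0.11 at 48 h.

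Replicates 1 and 2 stood apart from replicates 3 and 4 at every time point. Between the libraries of these sets, a chi-square per degree of freedom over genes had a median of 11.4, against 1.59 within them. Several of the genes described here differed between the sets, such as *Lef1* at 0 and 2 h and *Nkd1* at 4 h. Their values are therefore given for each replicate in the order 1, 2, 3 and 4. The adjusted p-values given below for other genes come from a limma fit that takes the 4 replicates as independent. They may be too small where a gene's change differs between the sets, and none with the sets averaged is given for these genes.

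In canonical Wnt signalling, a complex of AXIN, APC, GSK3 and CK1 marks β-catenin for degradation. When Wnt ligands bind their receptors, or when GSK3 is inhibited, β-catenin accumulates, enters the nucleus and joins TCF/LEF factors to activate target genes. Many targets encode inhibitors of the pathway, and their mRNA is therefore widely used as a readout of it. Inhibition of GSK3 is a component of the 2i condition that maintains ground-state pluripotency in mES cells.

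In the annotation of GRCm38, the genes lie apart from each other. On the forward strand lie *Sp5* at chr2:70474923-70477729, *Axin2* at chr11:108920349-108950783, *Lef1* at chr3:131110471-131224356 and *Nkd1* at chr8:88521354-88594884. On the reverse strand lie *Nkx1-2* at chr7:132594878-132599637, *Tcf7* at chr11:52252371-52283014, *Notum* at chr11:120653788-120661175, *Lgr5* at chr10:115450311-115587780 and *Znrf3* at chr11:5276324-5444847, as well as *Cdx1* on chromosome 18. Expression was summed over all exons of a gene, so the values below do not refer to single exons or UTRs.

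Levels of different genes can be compared only per length. On the scale of normalized counts per kb of annotated exon, the order at 0 h was *Cdx1* with 337 ± 16.5, *Tcf7* with 231 ± 50.1, *Notum* with 181 ± 24.3, *Nkx1-2* with 145 ± 58.3 and *Axin2* with 118 ± 27.3 (SD, n = 4 for each). *Sp5* followed with 80.5 ± 17.3, *Znrf3* with 18.8 ± 1.49, *Nkd1* with 5.12 ± 1.37, *Lef1* with 3.39 ± 2.66 and *Lgr5* with 0.129 ± 0.0904. Samples overlapped between *Tcf7* and *Notum*, *Notum* and *Nkx1-2*, *Nkx1-2* and *Axin2*, and *Nkd1* and *Lef1*, so the order within these pairs is not larger than the spread. At 96 h *Tcf7* came first with 38.2 ± 8.23, followed by *Znrf3* with 15.6 ± 0.332, *Axin2* with 6.60 ± 0.756 and *Nkd1* with 2.85 ± 0.310, and no samples overlapped between neighbours in this order. *Cdx1*, the highest at 0 h, had no read in any of the 4 libraries at 96 h.

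**Figure D1:**
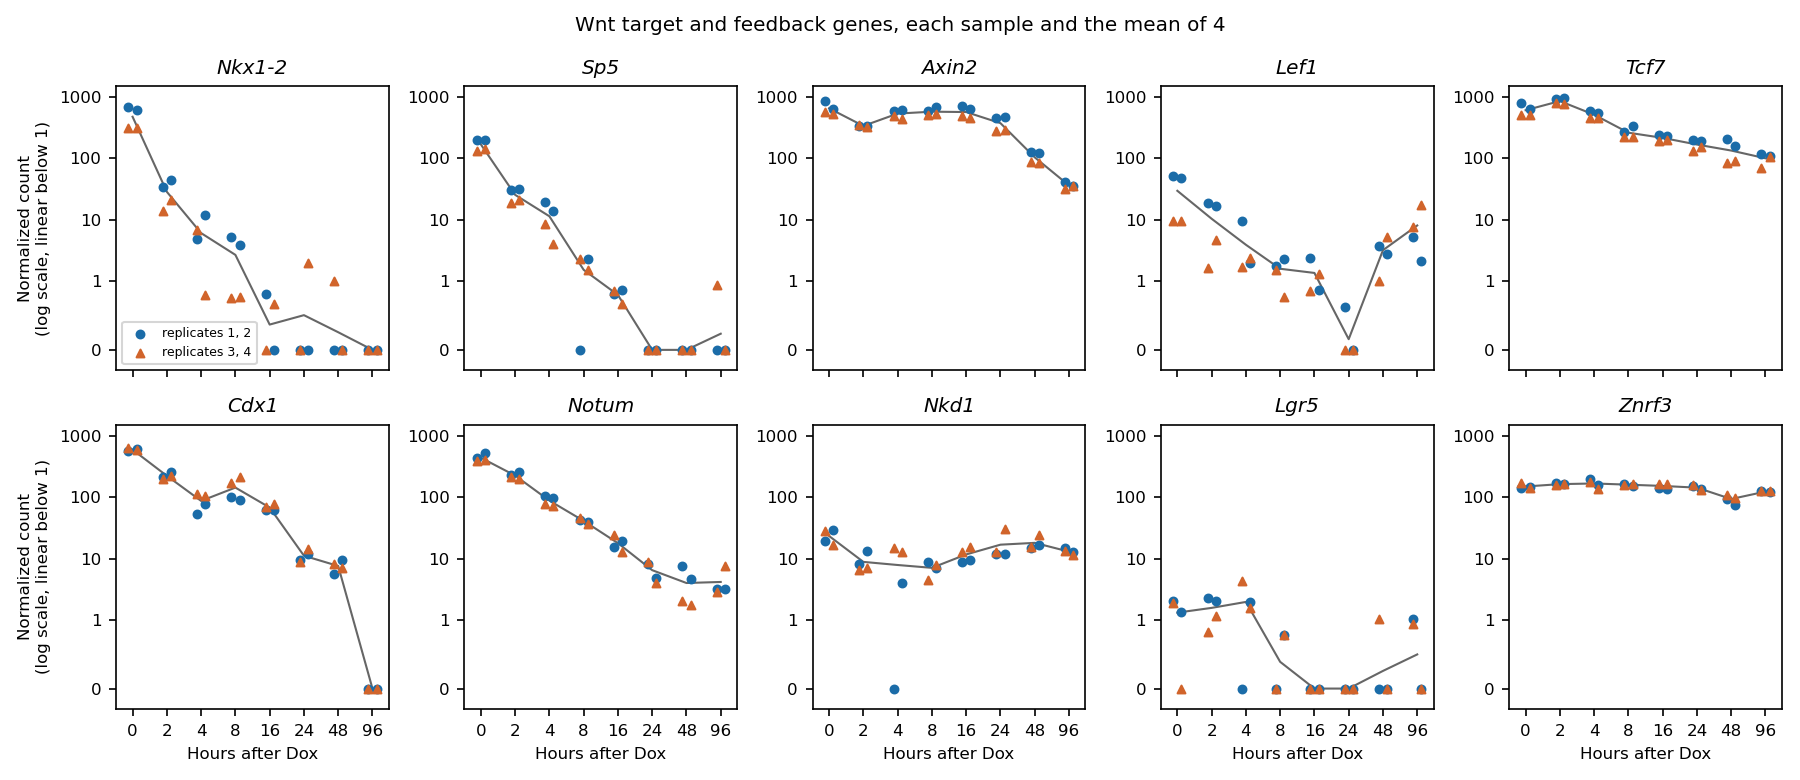
Normalized count of each of the 10 genes (y axis, logarithmic above 1 and linear below) at each time point after Dox addition (x axis, hours, evenly spaced and not to scale). Circles are replicates 1 and 2, triangles are replicates 3 and 4, and lines join the means of 4; *Nkx1-2* and *Sp5* fell to a few reads by 8 h, *Axin2* dipped at 2 h and returned, and *Znrf3* stayed between 74.4 and 196 throughout.

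*Nkx1-2* and *Sp5*, which encode transcription factors, had lost most of their transcripts by 2 h. *Nkx1-2*, a homeobox gene of the caudal epiblast and tail bud, was at 605, 671, 314 and 309.8 normalized counts at 0 h and at 44.7, 34.7, 21.1 and 14 at 2 h. Every 2 h sample was below every 0 h sample, and the mean at 2 h was 6.03% of that at 0 h. Both sets of replicates showed this, although the level at 0 h was 2.05 times higher in replicates 1 and 2. In bulk RNA, fewer cells that express a gene and less RNA per cell cannot be told apart, here or below.

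The fall of *Nkx1-2* continued after 2 h. Samples were at 11.9, 4.85, 0.802 and 6.93 normalized counts at 4 h and at 3.93, 5.36, 0.778 and 0.760 at 8 h. From 16 h onward no library held more than 1 read of this gene, and at 96 h none held any. Against 0 h, the level at 96 h was at least 147-fold lower, a bound set by a floor of 3 reads per library. *Nkx1-2* shares its strand with the overlapping *Fgfr2* locus and has an antisense gene, *Gm16764*, on the other strand.

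*Sp5*, an SP-family zinc finger gene that Wnt/β-catenin activates directly in several tissues, was at 199, 202, 143 and 132 normalized counts at 0 h. At 2 h it was at 32.2, 30.2, 21.1 and 18.9, or 15.1% of the mean at 0 h, and the groups did not overlap. At 4 h the mean was 6.79% of that at 0 h, and at 8 h no library held more than 3 reads, which made the level at least 70.1-fold lower. At 24 and 48 h there were no *Sp5* reads in any of the 8 libraries. Of the 2 SP-family genes followed here, the other, *Sp8*, was close to its 0 h level at 2 h with a log2 fold change of -0.21 (SE 0.59, adjusted p = 0.82) and was higher at 96 h by 3.19 (SE 0.59, adjusted p = 1.8e-05 by limma).

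*Sp5* starts at chr2:70474923 of GRCm38.p6 on the forward strand. Short windows upstream are shown because they hold the core letters bound by TCF/LEF factors, CTTTGA or CTTTGT, searched on both strands in RefSeq promoters from 250 bases before to 50 bases after each start. Capitals mark these letters, which read TCAAAG or ACAAAG where they lie on the other strand. The *Sp5* promoter held 5 matches, of which 1 was part of the longer CTTTGAT.
Sp5, chr2:70474700-70474729, forward strand: taACAAAGacaCTTTGTcaCTTTGAgcact
Sp5, chr2:70474817-70474846, forward strand: ccCTTTGAtcaggaaaatccaattatttgt
Of 32851 promoters of the same length, 31.2% held CTTTGA or CTTTGT, 16.0% held CTTTGA, 18.7% held CTTTGT and 3.73% held CTTTGAT, which overlaps CTTTGA. No match was present in the windows of *Nkx1-2*, *Nkd1*, *Axin2* or the 2 starts of *Tcf7*. A match describes letters only, and their absence from this window says nothing about a factor.

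*Cdx1*, a caudal-type homeobox gene that patterns the anterior-posterior axis and responds to Wnt and retinoic acid, fell in steps. It was at 603, 553, 580.3 and 619.5 normalized counts at 0 h, with little spread between the sets, and at 252, 215, 219 and 199 at 2 h. By 4 h it had reached 77.1, 53.3, 103 and 114. The 4 h samples all lay below the 2 h samples.

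At 8 h *Cdx1* was at 91.1, 99.1, 209 and 171 normalized counts, which is 24.2% of the mean at 0 h compared with 14.7% at 4 h. The log2 difference between 8 and 4 h was 0.68 (SE 0.22). It came from replicates 3 and 4 to a larger extent, whose mean went from 108 to 190.1, than from replicates 1 and 2, whose mean went from 65.2 to 95.1, and the 4 samples at 8 h overlapped those at 4 h. *Cdx1* then fell to 67.6 ± 6.61 (SD, n = 4) at 16 h and 11.1 ± 2.45 at 24 h. Between 48 h, with 29 reads over 4 libraries, and 96 h, with 0, the last transcripts were lost, and the level at 96 h was at least 182-fold lower than at 0 h. *Cdx2*, its paralogue in trophoblast and hindgut, was higher at 2 h (log2 fold change 1.19, SE 0.50, adjusted p = 0.063), was lower at 24 h by -1.93 (SE 0.50, adjusted p = 0.0017) and at 96 h differed from 0 h by 0.75 (SE 0.50, adjusted p = 0.18). *Nkx1-1* and *Cdx4* did not pass the filter on low values.

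*Axin2* behaved otherwise. It encodes a scaffold of the β-catenin destruction complex and is the most widely used Wnt reporter gene. At 0 h it was at 643, 865, 532 and 563 normalized counts, and at 2 h at 334, 335, 326 and 353. Every sample at 2 h was below every sample at 0 h, at 51.8% of the mean.

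From 4 h *Axin2* was higher again. The 4 h samples were at 611, 594, 440.2 and 493, all above the 2 h samples, and the 8 h samples at 673, 589, 526 and 508. Relative to 2 h, the log2 difference was 0.65 for 4 h, 0.76 for 8 h and 0.72 for 16 h, each with an SE of 0.18. The means at 4, 8 and 16 h were 82.1%, 88.2% and 87.0% of that at 0 h, and samples at each of these times overlapped those at 0 h. At 8 and 16 h, when *Axin2* was at these shares, no library held more than 6 reads of *Nkx1-2* or 3 reads of *Sp5*.

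A later decline of *Axin2* was seen from 24 h, where the mean was 1.51-fold lower than at 16 h. The 24 h samples of *Axin2* lay below the 16 h samples within each replicate set but overlapped them over all 4 replicates. At 24 h its samples had 471, 454, 292 and 278 normalized counts, 48 h samples had 121, 126, 82.7 and 86.7, and 96 h samples had 36.1, 42.1, 35.1 and 32.1. Groups at 24, 48 and 96 h did not overlap with each other, and the level at 96 h was 17.9-fold lower than at 0 h. The log2 fold change against 0 h was -2.63 at 48 h and -4.10 at 96 h (SE 0.18). Replicates 1 and 2 were 1.16 to 1.62 times as high as replicates 3 and 4 at each time point except 2 h, where the ratio was 0.985.

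*Axin1*, the paralogue that is made independently of the pathway, had 718 ± 77.5 (SD, n = 4) normalized counts at 0 h, 730.0 ± 104 after 2 h and 751 ± 86.1 after 96 h. Fold changes on the log2 scale were 0.02 at 2 h (SE 0.11, adjusted p = 0.91) and 0.06 at 96 h (SE 0.11, adjusted p = 0.60), the second being smaller than the shift that scaling by total reads gives. Per kb of exon, *Axin2* made up 38.3% ± 2.73 of the sum of both genes at 0 h, then 24.5% ± 2.79 after 2 h, 37.2% ± 1.48 after 8 h and 3.26% ± 0.131 after 96 h. This share did not overlap between 0 and 2 h, nor between 2 and 8 h, and does not depend on how the libraries were scaled. *Axin2* overlaps the antisense gene *Gm11670*.

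The TCF/LEF factor genes moved in different ways. *Tcf7*, which encodes TCF1, was at 632, 782, 506 and 504 normalized counts at 0 h and at 941, 926, 752 and 794 at 2 h. It was the only one of the 9 tested genes with a log2 fold change above 0.5 at 2 h, at 0.51 (SE 0.21). Within each replicate set, the 2 h samples of *Tcf7* lay above the 0 h samples. As the lowest of all 2 h samples was below the highest of all 0 h samples, the groups overlapped. Its mean then decreased at each time point, with samples going from 551, 584, 454 and 461 at 4 h to 334, 269, 219 and 224 at 8 h, and the groups from 8 h on did not overlap those at 0 h. At 96 h it was at 110.4, 118, 104 and 69.0, or 16.6% of the mean at 0 h.

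*Lef1* was low and split by replicate set. At 0 h it was at 48.3 and 51.6 normalized counts in replicates 1 and 2 and at 9.67 and 9.44 in replicates 3 and 4, a ratio of 5.23. At 2 h the values were 16.6, 18.9, 4.69 and 1.64, again with a ratio of 5.61, and within each set the log2 fold change was -1.44 (SE 0.58) in replicates 1 and 2 and -1.45 (SE 0.62) in replicates 3 and 4. At 8 and 16 h no library held more than 3 reads, and at 24 h 1 read was found in 4 libraries.

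*Lef1* reads returned late. Samples were at 2.83, 3.77, 5.28 and 1.03 normalized counts at 48 h and at 2.12, 5.26, 17.6 and 7.56 at 96 h, from 12 and 29 reads in all. The order of the sets was reversed at 96 h, with a ratio of 0.294. The log2 fold change between 96 and 0 h was therefore -3.53 (SE 0.58) in replicates 1 and 2 and 0.26 (SE 0.62) in replicates 3 and 4, and the joint value of -1.64 lies between them.

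One of the 4 annotated *Lef1* starts held the TCF/LEF letters in its promoter, 3 times in all, and 2 of these stretches are shown for comparison with *Sp5*. The other 3 starts had none.
Lef1, chr3:131156112-131156141, forward strand: ggTCAAAGgaaaataggtataacacaacct
Lef1, chr3:131156146-131156175, forward strand: atACAAAGtaggattgcattgtctgttctc
The gene-level counts do not distinguish between the starts, and *Lef1* also overlaps the antisense gene *Gm43352*. *Tcf7* overlaps the antisense gene *A630014C17Rik*.

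The other two factors of this family are not members of the list. *Tcf7l2* (TCF4) went from 126 ± 20.8 (SD, n = 4) normalized counts at 0 h up to 447 ± 146 by 2 h, with a log2 fold change of 1.77 (SE 0.23, adjusted p = 2.5e-07 by limma over all genes). It was back at 115 ± 29.3 at 8 h and reached 526 ± 65.9 at 96 h, 2.05 above 0 h (SE 0.23, adjusted p = 2.1e-09). *Tcf7l1* (TCF3), the main repressor of this family in mES cells, was lower at 2 h by -0.91 (SE 0.25, adjusted p = 0.0050) and higher at 96 h by 1.10 (SE 0.25, adjusted p = 0.00031).

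The family thus changed its composition, while its summed level per kb was 315 ± 28.1 at 0 h, 412 ± 11.8 after 2 h, 129 ± 7.34 after 16 h and 231 ± 17.5 after 96 h (SD, n = 4). *Tcf7* made up 72.8% ± 10.2 of the sum at 0 h, then 78.9% ± 7.42 after 2 h, 49.2% ± 8.93 after 24 h and 16.6% ± 3.85 after 96 h. *Tcf7l1* made up 21.5% ± 10.4 at 0 h and 57.1% ± 2.00 at 96 h, and *Tcf7l2* 4.63% ± 1.02 and 25.9% ± 1.88. *Lef1* never had a mean share above 1.05%. These shares use the union of all annotated exons and would differ with other transcript models.

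**Figure D2:**
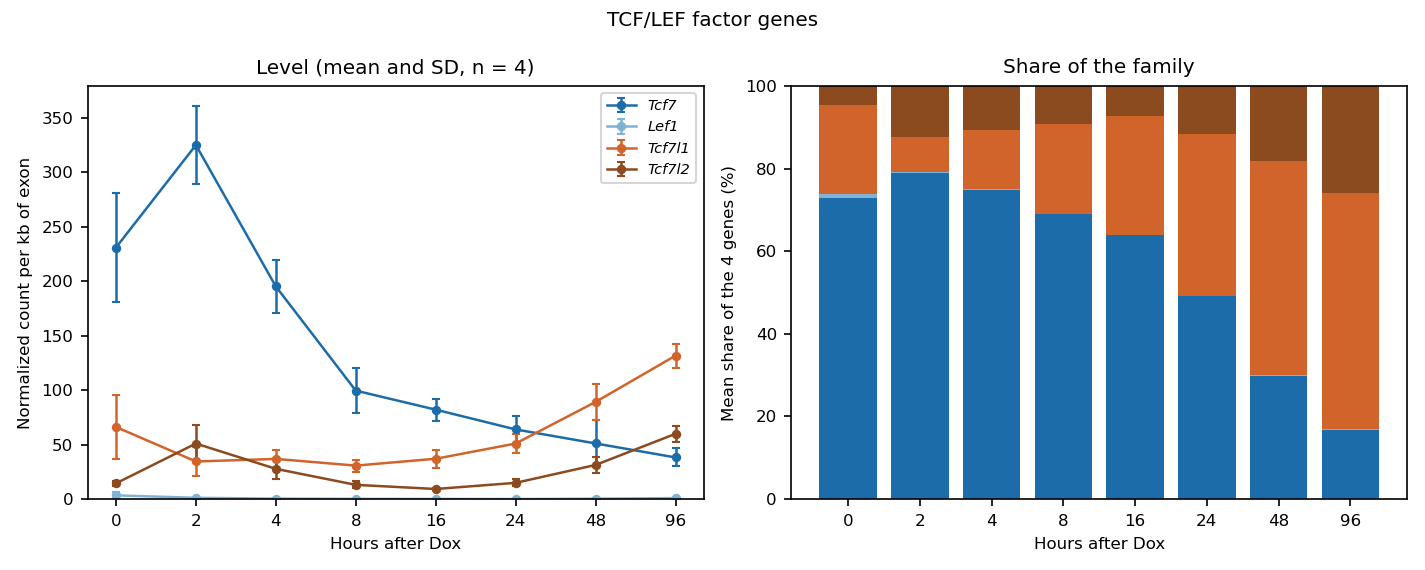
Left, normalized count per kb of exon (y axis) of the 4 TCF/LEF genes against hours after Dox addition (x axis, evenly spaced), with means and SD of 4 replicates. Right, the mean share of each gene in their sum (%), in which *Tcf7* went from 72.8% at 0 h to 16.6% at 96 h and *Tcf7l1* from 21.5% to 57.1%.

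Among the feedback inhibitors, *Notum* fell with the most regular course. It encodes a secreted deacylase that removes the lipid Wnt ligands need for receptor binding. The 0 h samples had 519, 434, 405 and 387 normalized counts, and the 2 h samples 255, 231, 198 and 211. Those of 4 h had 96.9, 104, 72.2 and 77.1, and those of 8 h 40.1, 42.0, 36.6 and 45.6. Up to 24 h, each group lay wholly below the one before it. As a share of the 0 h mean, *Notum* was at 51.3% after 2 h, 20.1% after 4 h, 9.41% after 8 h, 4.09% after 16 h and 1.49% after 24 h. From 24 h on the groups overlapped, with 13 reads in 4 libraries at 48 h and 15 at 96 h, where the level was 104-fold lower than at 0 h. At 2 h *Notum* and *Axin2* were thus at nearly the same share of their starting levels, and by 8 h they were at 9.41% and 88.2%. *Notum* overlaps the antisense genes *Notumos* and *Myadml2os*, and the counting was not stated to use strand.

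*Nkd1*, which encodes an intracellular antagonist that binds Dishevelled, was near the detection limit. It was at 29.0, 19.0, 16.9 and 28.3 normalized counts at 0 h and at 13.5, 8.30, 7.03 and 6.57 at 2 h, so the groups did not overlap. At 4 h the sets diverged, with 3.95 and 0 in replicates 1 and 2 and 12.8 and 14.7 in replicates 3 and 4. The call at 4 h (log2 fold change -2.05, SE 0.50) rested on replicates 1 and 2, without either of which it was no longer past a 4-fold difference, at -1.87 without replicate 1 and -1.29 without replicate 2. The mean was 50.2%, 72.3% and 77.4% of that at 0 h after 16, 24 and 48 h, and 55.7% after 96 h. Samples at 24 and 48 h overlapped those at 0 h. Its paralogue *Nkd2* did not pass the test at 2 h (log2 fold change -0.45, SE 0.38, adjusted p = 0.38) or at 96 h (0.15, SE 0.38, adjusted p = 0.69).

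*Znrf3*, a transmembrane ubiquitin ligase that removes Frizzled receptors from the cell surface, varied least. It was at 144, 143, 142 and 166 normalized counts at 0 h and at 162, 168, 162 and 158 at 2 h. The log2 fold change was 0.13 at 2 h and 0.10 at 8 h (SE 0.11), and samples at every time point up to 24 h overlapped those at 0 h. At 48 h it was at 74.4, 94.2, 95.0 and 108, and at 96 h at 119, 124, 124 and 124, both wholly below 0 h. The difference between 48 and 24 h was -0.61 and that between 96 and 48 h was 0.41 on the log2 scale (SE 0.11). The groups at 24, 48 and 96 h did not overlap with one another.

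The partner of *Znrf3*, *Rnf43*, went its own way. It went from 13.4 ± 3.0 (SD, n = 4) normalized counts at 0 h to 3.01 ± 0.953 after 2 h and 1.22 ± 0.878 after 24 h, and back to 11.8 ± 2.59 by 48 h. The log2 fold change of *Rnf43* against 0 h was -1.85 at 2 h (SE 0.43, adjusted p = 0.00089) and -2.79 at 24 h (SE 0.43, adjusted p = 2e-06), and it rose by 2.61 between 24 and 48 h (SE 0.43, adjusted p = 7.8e-06). Of the summed level per kb of both ligases, *Znrf3* made up 90.2% ± 2.18 at 0 h, 97.8% ± 0.643 after 2 h and 86.5% ± 4.23 after 48 h.

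*Lgr5*, a receptor for R-spondins, the secreted proteins that restrain ZNRF3 and RNF43, was barely detected. The 4 samples at 0 h held 1, 3, 0 and 1 reads, the largest number in any library was 5 at 4 h, and none was found in the 8 libraries of 16 and 24 h. Over the 4 libraries of a time point there were 5, 7 and 9 reads at 0, 2 and 4 h. The totals were 2, 0, 0, 1 and 2 reads at 8, 16, 24, 48 and 96 h. A difference between time points was not tested, and no fold is given. The related receptor *Lgr4* was abundant, at 423 ± 93.8 (SD, n = 4) normalized counts at 0 h, and made up 99.0% ± 0.465 of the summed level per kb of *Lgr4*, *Lgr5* and *Lgr6*. *Lgr4* was higher than at 0 h after 4 h (log2 fold change 0.56, SE 0.15, adjusted p = 0.0029) and 8 h (0.68, SE 0.15, adjusted p = 0.00043), at 48 h fell by 0.53 from 24 h (SE 0.15, adjusted p = 0.0035) and at 96 h was 0.42 above 0 h (adjusted p = 0.014). Scaling by total reads shifted the median of all genes by -0.26 at 96 h, so this last difference depends in part on scaling. *Lgr6* did not pass the filter on low values. Of the 8 tested paralogues of the 11 named here, 0 were 4-fold different from 0 h at 2 h by limma, with 2 lower and 2 higher at an unadjusted p below 0.05 and 1 lower by limma-voom, and 2 were 4-fold higher at 96 h, *Sp8* and *Tcf7l2*. Of all 15227 genes, 3532 were lower and 3435 higher at 2 h at that p. By limma-voom 77 of all genes were 4-fold lower at 2 h, and by limma 9.28% were 4-fold higher at 96 h.

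**Figure D3:**
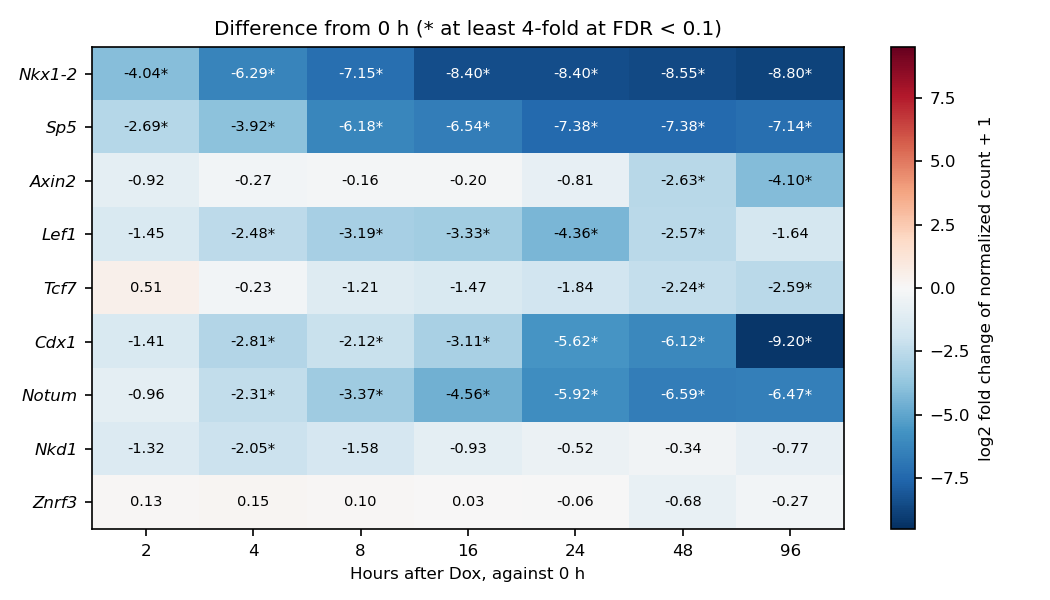
Log2 fold change of normalized count + 1 against 0 h (colour and printed values) of the 9 tested genes (rows) at each later time point (columns, hours after Dox), with stars where the fold was at least 4 at an FDR below 0.1. *Nkx1-2* and *Sp5* were past it from 2 h on, *Axin2* and *Tcf7* at 48 and 96 h, and *Znrf3* at no time point.

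At the thresholds of the study's methods, an FDR below 0.1 and a 4-fold difference, 2 of the 9 tested genes were lower at 2 h than at 0 h, *Nkx1-2* and *Sp5*, against a background of 0.348% of all 15227 genes. At any fold, 7 were lower, against 22.6% of all genes, and 1, *Tcf7*, was higher, against 22.2%. With replicates 1 and 2 averaged, and 3 and 4 likewise, 5 were lower and 0 higher, as *Lef1*, *Nkd1* and *Tcf7* were no longer past the FDR. No member was 4-fold higher at 2 h (background 2.00%) by limma or by limma-voom, and 1 was higher at an unadjusted p below 0.05 (3435 of all genes). After 4 h, 6 were 4-fold lower by limma (background 0.709%) and 5 by limma-voom. The number by limma was 5 after 8 h (1.31%), 5 after 16 h (2.40%), 5 after 24 h (4.34%), 7 after 48 h (7.09%) and 6 after 96 h (10.3%). Of all genes, 9.28% were 4-fold higher at 96 h. Since the genes were chosen with this contrast in view, and *Lef1* passed the filter only with its 0 h samples, nothing is read from these counts. The median log2 fold change of the 9 was -1.32 at 2 h and -4.10 at 96 h, beside -0.03 at both times for all genes tested.

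Between 2 h and later times, both sides lacked the inhibitors and had serum. Compared with 2 h, 0 of 9 were 4-fold higher at 48 h (background 8.50%) or at 96 h (9.00%) by limma, 0 by limma-voom, and 0 at an unadjusted p below 0.05 (5457 and 5569 of all 15227 genes). At any fold and an FDR below 0.1, 1 was higher at 48 h, *Nkd1*, against 36.9% of all genes. Its log2 difference was 0.97 (SE 0.50), and its 48 h samples lay wholly above those at 2 h. With the replicate sets averaged, *Nkd1* was no longer past the FDR. At 96 h 6 were 4-fold lower (background 10.6%): *Cdx1*, *Notum*, *Nkx1-2*, *Sp5*, *Axin2* and *Tcf7*. *Cdx1* had the largest of these differences, -7.79 on the log2 scale, and *Tcf7* the smallest, -3.10 (SE 0.21), while *Nkd1* differed by 0.55 (SE 0.50).

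Other genes that Wnt activates in various tissues did not follow a common course. Of 18 such genes outside the list, 16 were tested. At 2 h, 1 was 4-fold lower, *Ascl2* (log2 fold change -2.24, SE 0.42, adjusted p = 9.1e-05 by limma), and 2 were higher, the proto-oncogene *Myc* (2.24, SE 0.32, adjusted p = 1.5e-06) and *Wisp1* (2.44, SE 0.48, adjusted p = 0.00014). Of all genes, 0.348% were 4-fold lower and 2.00% higher at 2 h. The median of the 16 was -0.17. *Ascl2* did not remain low, and was at 133 ± 54.6 (SD, n = 4) normalized counts at 24 h against 13.9 ± 5.92 at 0 h.

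The mesoderm gene *T* (brachyury) had a large spread at 0 h, from 39.7 to 422 normalized counts. The log2 fold change of *T* was -1.39 after 2 h (SE 0.85, adjusted p = 0.21), -3.55 after 4 h (SE 0.85, adjusted p = 0.0012) and -6.90 after 96 h (SE 0.85, adjusted p = 2.1e-08). *T* is also among the 8 mesendoderm markers, whose summed level was 277 to 811 at 0 h and 90.8 to 132 at 96 h, and the part of such cells in the levels of the Wnt genes at 0 h was not tested. At 96 h 3 of the 16 other targets were 4-fold lower, *T*, *Tnfrsf19* (-4.55) and the cell cycle gene *Ccnd1* (-4.40), and *Ephb3* (2.98), *Sp8* (3.19) and the homeobox gene *Msx2* (4.21) were among those that were higher. Of all genes, 10.3% were 4-fold lower and 9.28% higher at 96 h. *Ccnd1* kept 1112 ± 126 normalized counts at 16 h and dropped to 487 ± 59.6 at 24 h and 44.3 ± 3.28 at 48 h, which is the interval of the *Axin2* decline.

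**Figure D4:**
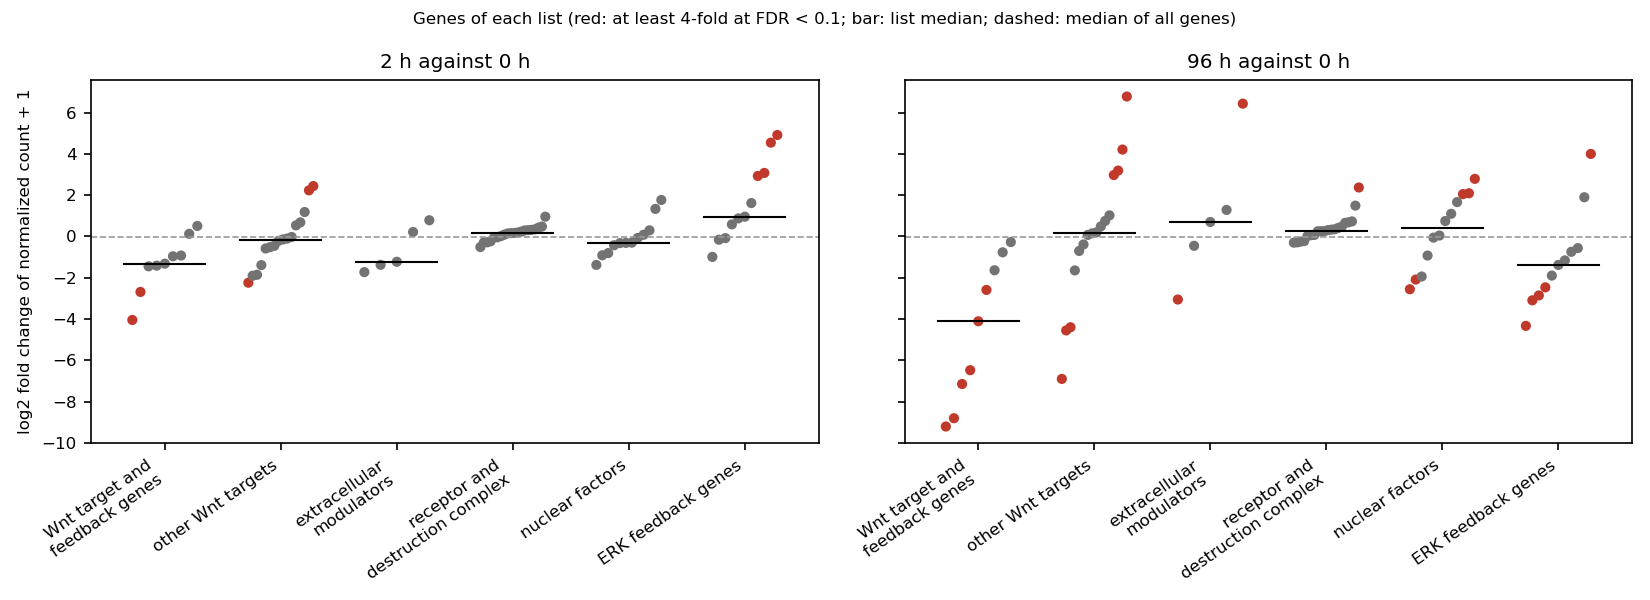
Log2 fold change of normalized count + 1 (y axis) of each tested gene, by list (x axis), at 2 h (left) and 96 h (right) against 0 h. Red points were at least 4-fold different at an FDR below 0.1, bars are list medians (-1.32 and -4.10 for the Wnt target and feedback genes) and the dashed line is the median of all genes.

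All 20 genes for receptors, Dishevelled, the destruction complex and β-catenin were tested. At 2 h 0 were 4-fold different by limma or limma-voom, where 0.348% of all genes were lower and 2.00% higher. At any fold 1 was lower and 9 were higher, both at an FDR below 0.1 (22.6% and 22.2% of all genes) and at an unadjusted p below 0.05 (3532 and 3435 of all 15227 genes). At 96 h 1 was 4-fold higher, *Apc2* (2.37, SE 0.47, adjusted p = 4.6e-05), against 9.28% of all genes. Of 12 genes for TCF/LEF factors and their cofactors outside the list, 0 were 4-fold different at 2 h by either tool. At an unadjusted p below 0.05, 7 were lower and 2 higher, against 3532 and 3435 of all 15227 genes. At 96 h *Pygo1* (-2.55) and the corepressor *Tle4* (-2.09) were lower, against 10.3% of all genes. *Tcf7l2* (2.05), *Ctnnbip1* (2.09) and the coactivator *Bcl9l* (2.79) were higher, against 9.28%.

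Of 12 secreted or membrane modulators, 5 were tested. *Dkk1*, an inhibitor that binds the LRP5 and LRP6 coreceptors and is itself a Wnt target in many cells, went from 11 ± 3.47 (SD, n = 4) normalized counts at 0 h to 3.98 ± 0.595 by 2 h, with a log2 fold change of -1.23 (SE 0.29, adjusted p = 0.0012). It then rose to 131 ± 41.1 by 8 h, 916 ± 35 by 16 h and 1754 ± 421 by 48 h, and was 6.43 above 0 h at 96 h (SE 0.29, adjusted p = 2e-18). *Kremen2*, which encodes a DKK receptor, was lower at 96 h by -3.05 (SE 0.50, adjusted p = 3.1e-06).

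ERK signalling lies downstream of MEK, whose inhibitor was also present at 0 h alone. Of 11 feedback genes of ERK signalling, 4 were 4-fold higher at 2 h, *Dusp5* (4.92), *Dusp4* (4.55), *Spry4* (3.08) and *Dusp6* (2.93). By limma 0 were 4-fold lower, also 0 by limma-voom, and 1 was lower at an unadjusted p below 0.05 (3532 of all 15227 genes). Of all genes, 2.00% were 4-fold higher and 0.348% lower at 2 h. At 96 h *Dusp4* was still higher (4.00), against 9.28% of all genes. *Etv5* (-4.33), *Etv4* (-3.09), *Il17rd* (-2.85) and *Spry1* (-2.46) were lower at 96 h, against 10.3% of all genes. Compared with 2 h, when the inhibitor was also absent, 8 of the 11 were 4-fold lower at 48 h (background 7.65%) and 8 at 96 h (10.6%). In these comparisons 0 were 4-fold higher.

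Over the 32 samples, the courses of the genes were compared by Pearson correlation of log2 normalized counts, which describes likeness only, as samples of a time point share their culture condition. Within the list, *Nkx1-2* and *Sp5* were most alike (r = 0.95), followed by *Tcf7* and *Notum* (r = 0.94) and *Sp5* and *Notum* (r = 0.93). *Nkd1* and *Znrf3* had the lowest value (r = -0.45). Among 9957 other genes with a mean of at least 100 normalized counts at their highest time point, *Grsf1*, which encodes an RNA-binding protein of mitochondria, was most like both *Nkx1-2* (r = 0.95) and *Sp5* (r = 0.97). The gene most like *Tcf7* was the pluripotency factor *Sox2* (r = 0.98), and *Axin2* was most like *Tex14* (r = 0.98), a gene of germ cell bridges. For the others the closest were *Mcf2* for *Cdx1* (r = 0.98), *Ankrd10* for *Notum* (r = 0.97), *Exosc10* for *Znrf3* (r = 0.90), *Rbm38* for *Lef1* (r = 0.89) and *1110051M20Rik* for *Nkd1* (r = 0.71).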

How the data were processed

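PolyA RNA libraries were made with a stranded kit and sequenced as single-end reads of 50 bases. According to the submitters' processing notes and the study's methods, the authors checked reads with FastQC 0.11.8, used cutadapt 2.7 for trimming and HISAT2 2.1.0 for alignment to GRCm38.p6, and counted them per gene with featureCounts (Subread 1.6.4). The strand setting of the counting is not given in the sources used here. What the authors deposited are log2 values after variance stabilization, for 54233 rows in 32 samples. Its 29140 rows without a symbol were matched by gene identifier, and 29046 found one.

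The lowest value, 1.5808, stands for no reads and fixes the transformation, which was inverted to normalized counts, that is reads divided by 1 size factor per sample. Divided by each sample's step, the normalized count of 1 read, 100% of values were whole reads within 1e-06. Where no library of a group held more than 3 reads of a gene, folds against that group are bounds, which cover counting error only.

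Log2(normalized count + 1) of the 15227 genes with at least 10 normalized counts in at least 4 samples was fitted with limma 3.58.1 in R 4.3.3 (trended eBayes, all 32 samples, no block) with Benjamini-Hochberg adjustment per comparison. Fold changes are on that scale, which understates changes of low genes. As an alternative, limma-voom on the recovered reads called 77 genes lower and 329 higher at 2 h against 0 h. The fit was tested on simulated data.

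The members, the other gene lists and the tests were chosen with earlier results of these data known. Named besides the members were their paralogues, the called genes of each list (all where 5 or fewer, otherwise the 2 largest rises and falls at 2 h and 96 h) and the gene most correlated with each member. Exon lengths came from a later GENCODE release than the authors', and promoters from RefSeq on GRCm38.p6. Results were recomputed under 17 other settings, and in each replicate set alone, which was added after seeing the data. One gene of the other Wnt targets is not reported here.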

Additional observations from a re-analysis of the deposited data

Results flagged for a closer look

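A sample was picked out where its gap to the nearest of the other 3, divided by the range of the 4, was above Dixon's critical value. Of 74 groups tested this gave 10. For normally distributed values chance alone flags about 1 in 20 groups, a rate that does not hold for low read counts, so the 10 are not compared with it. In 5 of the 10 groups 1 read stood against libraries without any, which is flagged by construction: *Nkx1-2* at 24 h (2.03 normalized counts) and at 48 h (1.03), *Sp5* at 96 h (0.945), *Lef1* at 24 h (0.626) and *Lgr5* at 48 h (1.03). *Lef1* at 4 h reached 9.69 in replicate 2 from 4 reads, beside a median of 2.19. *Notum* at 96 h reached 7.53 in replicate 3, beside a median of 3.17. *Nkd1* at 24 h was at 30.5 in replicate 3, beside a median of 12.5 and from 15 reads. *Znrf3* at 0 h was highest in replicate 4 with 166, beside a median of 143, and at 96 h lowest in replicate 1 with 119, beside a median of 124.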

How the results depend on the processing

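No log2 fold change of a called member changed sign under any alternative. Of the member values recomputed, 540 moved by less than the spread between replicates and 60 by more. With a mean of at least 50 normalized counts required, which leaves fewer members in the test, the number 4-fold lower than 0 h was 1 at 2 h and 3 at 4, 8, 16 and 24 h. With a 2-fold threshold in place of 4-fold, 5 were lower at 2 h. Shares of all genes under the varied settings are not given here, so nothing is read from the counts in this section. Among the other Wnt targets, where 1 was lower at 2 h, the number was 2 with a pseudocount of 0.5, with scaling by total reads, with limma-voom and in replicates 1 and 2 alone. It was 0 with a pseudocount of 8, with the mean filter and on the deposited values, and 3 with the 2-fold threshold. Leaving out 1 replicate number gave 1 to 2, with 2 without replicate 3. The cause was not tested. Leaving out replicate 1 ended the calls of *Lef1* (-1.96) and *Nkd1* (-1.87) at 4 h and of *Cdx1* (-1.93) at 8 h, and leaving out replicate 2 that of *Nkd1* (-1.29). At 96 h *Lef1* was called without replicate 3 (-2.45) or replicate 4 (-2.08). In replicates 3 and 4 alone, *Lef1* and *Nkd1* at 4 h, *Cdx1* at 8 h and *Lef1* at 48 h were not called. In replicates 1 and 2 alone, *Tcf7* at 48 h (-1.97) was not called and *Lef1* at 96 h (-3.53) was. Same-numbered samples of different time points deviated together no more than others of their set (mean correlation 0.196 for both, lowest same-number pair -0.0428, other set -0.196), and 15 of 32 samples correlated best with their own number, so the numbers were not used as pairs. With the replicate block, 2 members were lower at 2 h and 6 at 96 h, the numbers found without it. Genes with few reads per library, such as *Lgr5* and, from 4 to 48 h, *Lef1*, are limited by depth.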
